A study of Homo sapiens with 18 samples.

Results

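The replication-dependent histone genes supply the histone proteins that package newly made DNA, and 69 of the 54425 gene entries of the count table belong to them. They were chosen by name, as every entry whose symbol begins with HIST1H, HIST2H, HIST3H or HIST4H and whose description does not call it a pseudogene, a rule that left out 19 histone pseudogene entries. The rule itself used no measured value, but the set was chosen with earlier results of these data known. By class there were 6 linker histone H1 genes, 17 H2A, 18 H2B, 13 H3 and 15 H4 genes. By cluster, 54 lay in HIST1 on chromosome 6, 11 in HIST2 and 3 in HIST3, both on chromosome 1, and 1 (HIST4H4) on chromosome 12.

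These genes come in many copies that encode the same or nearly the same proteins, lie side by side in clusters and have short transcripts with few or no introns. They are transcribed mainly in S phase at nuclear sites called histone locus bodies, where NPAT drives transcription. Their messages end in a stem-loop bound by SLBP in place of a poly(A) tail. H2A and H2B genes often lie head to head and share the DNA between their start sites.

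The measurement was ATAC-seq, in which a transposase inserts adapters into accessible DNA, with reads counted per gene. A count is therefore a measure of accessible DNA over a gene, not of its RNA. The cells were HEK293T, a human embryonic kidney line, carrying fusions of the t(4;11) translocation of MLL (KMT2A) and AF4 (AFF1) in Sleeping Beauty transposon vectors. MLL-AF4 cells carried inducible MLL-AF4, AF4-MLL cells carried inducible AF4-MLL, and co-expression cells carried constitutive MLL-AF4 plus inducible AF4-MLL. Doxycycline at 1 µg/ml for 48 h switched on the inducible construct in all 3 settings. Each was sampled on day 3 and on day 28, with 3 libraries in each of the 6 groups. The study's methods call its replicates biological. The labels number the libraries without naming separate cultures, so p-values measure the spread between these libraries. The constitutive line was a stable line selected with puromycin, and doxycycline was taken away after the early sampling. Cells without a fusion construct were not analysed here, so settings and days were compared with each other.

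Libraries held from 442159 to 3539937 counts. Mitochondrial genes took 32.7% to 45.6% of them on day 3 and 63.6% to 68.5% on day 28, so that 297567 to 1116385 counts lay on nuclear genes and 658 to 1931 on the histone genes. KMT2A, part of which is in every construct, had group means of 96.5 and 94.0 CPM in AF4-MLL cells (day 3 and day 28), 35.7 and 45.4 CPM in MLL-AF4 cells and 52.8 and 67.4 CPM in co-expression cells, where CPM is the count relative to a library size (mitochondrial counts included) that was scaled by the trimmed mean of M values, TMM. Reads from a construct and from the chromosomal gene cannot be told apart. Markers did not check the cell type. The kidney genes PAX2 and WT1 had means of 16.5 and 19.8 CPM, and the blood genes PTPRC and SPI1 had 13.1 and 19.4 CPM, so counts over whole genes did not separate them.

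The promoters shown first are those on which the results below turn: the shared promoter of the H4 copies HIST2H4A and HIST2H4B, that of HIST2H2AA4, the shared H2A and H2B start region of HIST3H2A, the highest HIST1 gene (HIST1H2BN) and a gene almost without counts (HIST1H2BM). Each holds 250 bases before and 50 after the annotated start, from RefSeq on GRCh38.p14, and is written on the gene's own strand. Capitals mark TATAAA (the TATA box), CCAAT (the CCAAT box) and ATTTGCAT (the octamer known from H2B promoters), on either strand. HIST2H4A lies at chr1:149832407-149832706 (plus strand) and HIST2H4B at chr1:149861110-149861409 (minus strand). The others are at chr1:149850811-149851110 (HIST2H2AA4, plus), chr1:228457824-228458123 (HIST3H2A, minus), chr6:27838319-27838618 (HIST1H2BN, plus) and chr6:27814772-27815071 (HIST1H2BM, plus).
HIST2H4A and HIST2H4B: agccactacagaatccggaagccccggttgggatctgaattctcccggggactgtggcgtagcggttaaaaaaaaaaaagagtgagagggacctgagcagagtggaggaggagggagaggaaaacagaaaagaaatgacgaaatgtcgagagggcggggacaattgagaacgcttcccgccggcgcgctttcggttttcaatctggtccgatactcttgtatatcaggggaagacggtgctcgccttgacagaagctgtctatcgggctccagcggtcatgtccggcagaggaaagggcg
HIST2H2AA4: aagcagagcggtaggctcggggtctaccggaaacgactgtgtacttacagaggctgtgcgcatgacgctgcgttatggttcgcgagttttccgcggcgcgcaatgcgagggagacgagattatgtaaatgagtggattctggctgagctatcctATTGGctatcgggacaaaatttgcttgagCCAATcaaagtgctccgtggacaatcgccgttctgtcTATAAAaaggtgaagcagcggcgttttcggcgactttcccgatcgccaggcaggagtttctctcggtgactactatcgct
HIST3H2A: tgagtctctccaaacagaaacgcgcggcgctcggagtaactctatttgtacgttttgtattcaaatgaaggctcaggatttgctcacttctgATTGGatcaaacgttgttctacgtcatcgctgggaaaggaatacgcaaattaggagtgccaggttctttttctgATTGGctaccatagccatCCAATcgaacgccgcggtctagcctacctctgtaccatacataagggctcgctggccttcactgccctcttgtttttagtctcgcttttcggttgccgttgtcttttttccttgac
HIST1H2BN: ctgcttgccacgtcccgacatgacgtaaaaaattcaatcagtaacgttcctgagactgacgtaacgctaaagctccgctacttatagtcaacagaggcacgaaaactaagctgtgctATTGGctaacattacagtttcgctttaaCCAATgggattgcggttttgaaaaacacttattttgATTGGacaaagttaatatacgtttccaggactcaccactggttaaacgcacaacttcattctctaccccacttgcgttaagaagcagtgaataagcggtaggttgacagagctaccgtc
HIST1H2BM: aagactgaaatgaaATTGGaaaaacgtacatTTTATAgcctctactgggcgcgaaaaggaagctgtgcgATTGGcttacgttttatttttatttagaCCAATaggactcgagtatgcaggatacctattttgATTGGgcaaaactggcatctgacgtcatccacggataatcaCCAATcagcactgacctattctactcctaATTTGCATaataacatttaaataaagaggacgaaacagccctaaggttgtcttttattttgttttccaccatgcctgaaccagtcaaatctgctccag

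The HIST2H4A and HIST2H4B promoters were identical over all 300 bases. Those of HIST2H2AA3 and HIST2H2AA4 shared a run of 299 bases and those of HIST2H3A and HIST2H3C a run of 296 bases, while HIST2H3D, an H3 gene of the same cluster, differed from HIST2H3A by 152 edits. RefSeq held promoters for 64 of the 69 genes. TATAAA was found in 43 of them (67.2%), against 11.95% of 27305 promoters of the same length, and CCAAT in 54 (84.4%) against 35.7%. The octamer was found in 25 (39.1%) against 1.80%. It was in 14 of 18 H2B and 11 of 16 H2A promoters and in 0 of the 6 H1, 11 H3 and 13 H4 promoters. The promoter windows of head-to-head H2A and H2B partners, with starts 194 to 248 bases apart, overlap, so 1 site can count for both. For all 3 motifs these are therefore numbers of promoters, not of separate sites. CCAAT was in every H1, H2A, H2B and H3 promoter of the set but in 3 of 13 H4 promoters. The shared HIST2H4A and HIST2H4B promoter printed above has none of the 3 motifs. A match is a description of letters and says nothing of binding.

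Of the 69 genes, 46 passed the filter on low counts and were tested among 17660 genes. A further 15 had at most 3 counts in every library, and 8 lay between. The tested histone genes had a median of 18 counts per library, against 21 over all genes tested. All 11 HIST2 genes and HIST4H4 were tested, with 2 of 3 in HIST3 and 32 of 54 in HIST1. Because a gene can pass the filter through 1 group with many counts, these numbers say nothing of changes.

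Levels differed widely between genes of 1 cluster. Per gene, the 10 highest members held 47.6% of the summed CPM. Per kilobase of RefSeq span, the 4 highest were HIST3H2BB with 122 CPM per kb, HIST3H2A with 110, HIST1H2BN with 101 and HIST2H4A with 95.1. Which region of a gene was counted is not given in the sources used here, so this scale is approximate. A long span lowers the value: HIST2H2BF had 23.6 CPM but 0.796 CPM per kb over 29682 bases. Among the 39 tested genes with a span under 1000 bases the highest was 14.4 times the lowest.

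In the H1 class, the linker histones that bind the DNA between nucleosomes, HIST1H1E had a mean of 16.9 CPM (21.5 CPM per kb), HIST1H1C 14.9 CPM (20.3 per kb) and HIST1H1D, the lowest tested, 6.55 CPM (8.44 per kb). In H2A, HIST3H2A had 56.3 CPM, HIST1H2AG 36.4 CPM (73.8 per kb) and HIST1H2AE, the lowest tested, 5.11 CPM (9.88 per kb). In H2B, its partner in the core particle, HIST3H2BB had 55.6 CPM, HIST1H2BN 54.8 CPM and HIST1H2BF 7.24 CPM (15.3 per kb). Per kb, the H2B genes HIST3H2BB and HIST1H2BN stood at 122 and 101 CPM, several times HIST1H2BF, so genes of 1 class differed widely.

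H3 and H4 form the central tetramer of the nucleosome. The H3 genes HIST2H3A and HIST2H3C had means of 33.8 and 33.7 CPM (65.3 and 64.5 per kb), and HIST1H3F had 5.79 CPM (11.7 per kb). Among H4 genes HIST2H4B had 42.7 CPM and HIST2H4A 37.7 CPM, and HIST1H4K had 5.58 CPM (14.4 per kb). HIST2H4B has a RefSeq span of 16753 bases, which contains 3 other genes, so its 2.55 CPM per kb is not comparable with the others. In all, 10 members overlap another RefSeq gene, and ATAC-seq reads carry no strand that could assign them.

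Several genes had almost no counts. The testis-linked genes HIST1H1T, HIST1H2AA, HIST1H2BA and HIST3H3 had at most 3, 1, 2 and 2 counts in any library. HIST1H2AD had a single count in 18 libraries. Further genes were as low: HIST1H3C and HIST1H4L had 5 counts each in all 18 libraries together, HIST1H2BM 5, HIST1H1A 11 and HIST1H1B 12. A count of 3, the floor chosen here, corresponds to 1.41 CPM in the deepest and 4.34 CPM in the shallowest library. It is not a limit of detection, but levels under it rest on few counts. HIST1H2AD, HIST1H2AA and HIST1H2BA each overlap 1 other RefSeq gene. How reads that match several histone genes, or fall on overlapping genes, were treated is not given in the sources used here. The part of that treatment in these low counts was not tested.

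**Figure D1:**
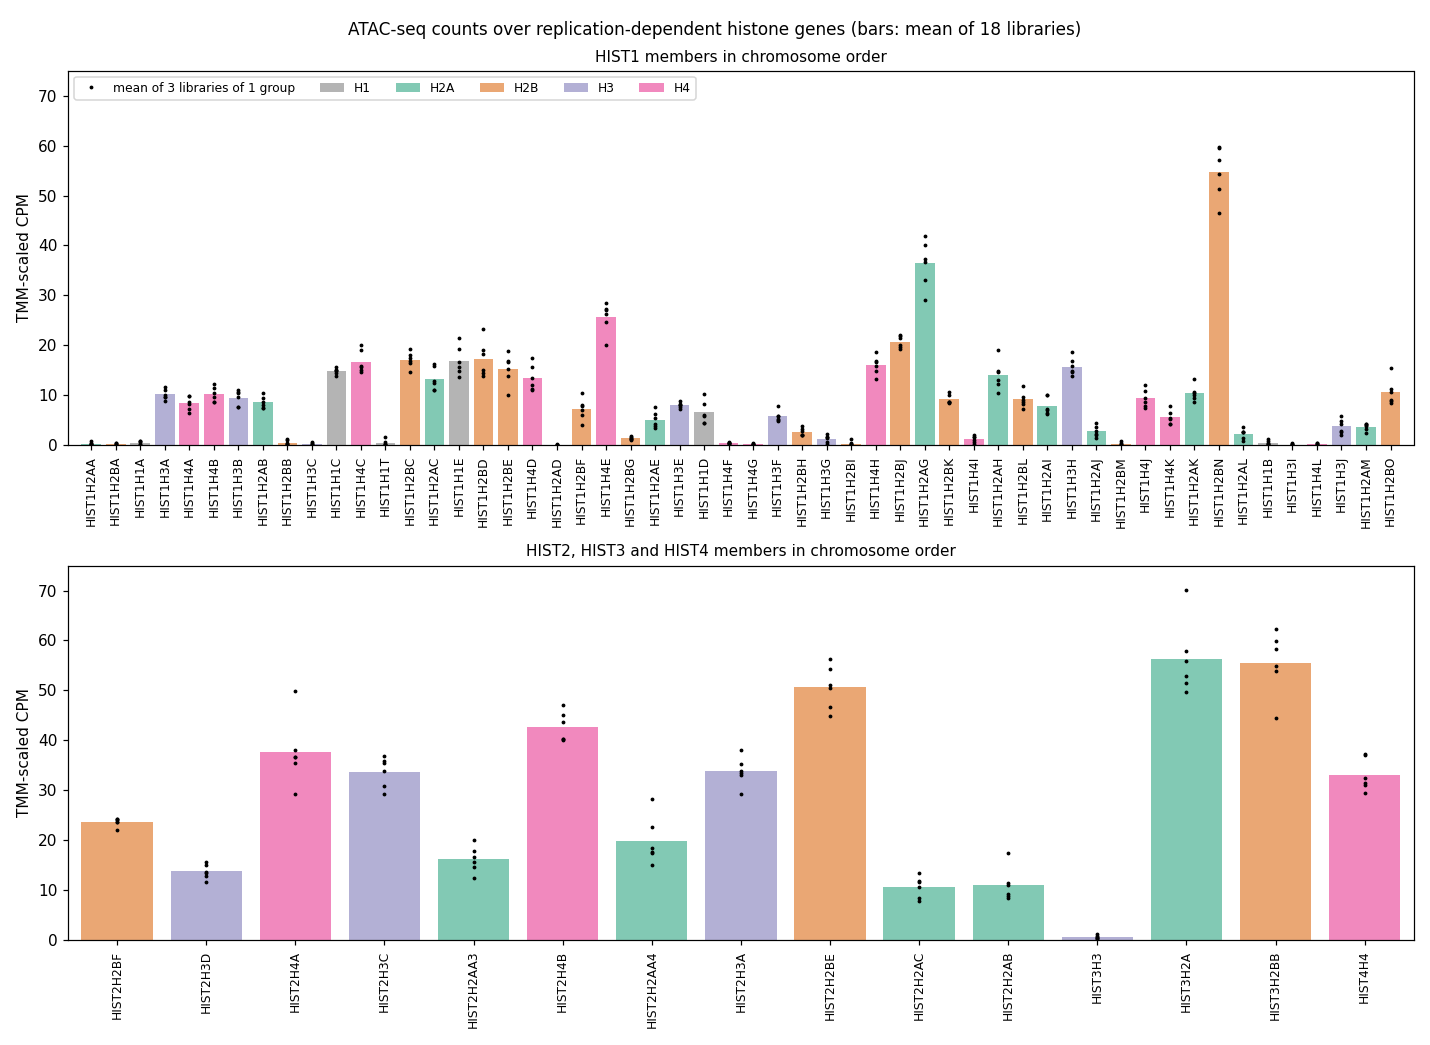
TMM-scaled CPM (vertical axis) of each of the 69 histone genes in chromosome order, HIST1 above and HIST2, HIST3 and HIST4 below, with bars for the mean of 18 libraries coloured by class and points for the 6 group means. HIST1H2BN at 54.8 CPM stands above its neighbours in HIST1, and HIST3H2A and HIST3H2BB are the highest outside it at 56.3 and 55.6 CPM.

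Along HIST1 the genes fall into 3 main blocks and a lone pair. The first block, of 31 genes over 268.5 kb (chr6:26017032-26285534), held 27.9% of the summed CPM of all 69 members. The second, of 5 genes over 15.2 kb (chr6:27132316-27147562), held 8.94%, and the third, of 16 genes over 86.4 kb (chr6:27807479-27893891), held 15%. HIST1H2AA and HIST1H2BA at chr6:25726063-25727345 held 0.0554%. HIST2, with 11 genes, held 32.2%, HIST3 12.3% and HIST4H4 3.63%.

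Pairs were sought among the 64 members with a promoter, which gives the strand, so HIST1H2AH, for example, was left out. Among them were 11 head-to-head H2A and H2B pairs with start sites at most 500 bases apart. Partners of a pair did not always have like levels. HIST3H2A and HIST3H2BB, 230 bases apart, had 110 and 122 CPM per kb. HIST2H2BE and HIST2H2AC, 236 bases apart, had 22.7 and 21.4 CPM per kb, but 50.6 and 10.6 CPM. Their RefSeq spans are 2224 and 494 bases, so their likeness held only per kb. HIST1H2BN had 101 CPM per kb (54.8 CPM) and HIST1H2AK, whose start lies 194 bases away, 21.1 CPM per kb (10.5 CPM). In CPM the higher partner of these 2 pairs was 4.78 and 5.24 times the lower. HIST1H2BF had 15.3 CPM per kb beside HIST1H2AD at the floor, but HIST1H2AD overlaps 1 other RefSeq gene. How reads on overlapping genes were counted is not given in the sources used here. If reads were counted over gene bodies, these levels include little of the shared region between the starts.

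Promoter CpG content was described beside the levels. Histone promoters had a lower median CpG count than all promoters (11.5 against 14) and a lower median GC content (43.3% against 58.3%). Their median CpG observed over expected, a ratio to the number expected from the C and G of the promoter, was 0.775 against 0.580. Over the 57 members with a promoter and a span under 1000 bases, Spearman's rho between this ratio and CPM per kb was 0.39, and over the 45 of them in HIST1 it was 0.28. The points share libraries, depth and base composition, and near-identical copies are among them, so the value is a description.

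**Figure D2:**
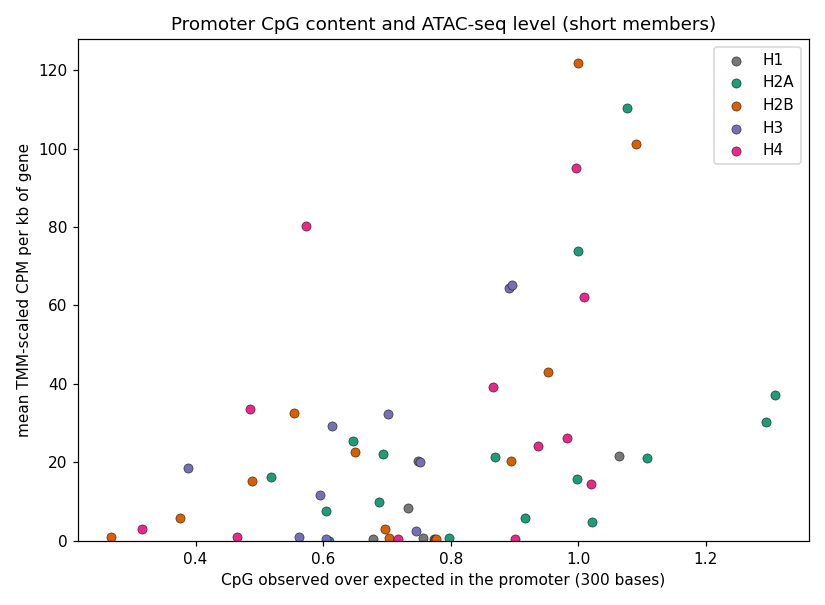
Mean TMM-scaled CPM per kb of gene (vertical axis) against CpG observed over expected in the 300-base promoter (horizontal axis) for 57 members with a span under 1000 bases, coloured by class. Points scatter widely around a weak upward trend, with Spearman's rho 0.39.

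The order of the genes was much the same in every group. Over the 46 tested members, Spearman's rho between the group means of any 2 groups ran from 0.892 to 0.957. The highest group mean of a gene was a median of 1.45 times its lowest, with a range from 1.10 times in HIST2H2BF to 2.55 times in HIST1H2BF.

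Summed over all members, the histone genes took the largest share of nuclear counts on day 3 in co-expression cells. The 3 libraries had 0.224%, 0.248% and 0.230% of nuclear counts, with a mean of 0.234% ± 0.0127 (SD, n = 3). AF4-MLL cells on day 3 had 0.206%, 0.221% and 0.193%, and MLL-AF4 cells on day 3 had 0.196%, 0.205% and 0.191%. On day 28 all 9 libraries lay between 0.159% and 0.188%. The 3 co-expression libraries of day 3 were above every other library.

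On the TMM scale the sum was 1021 ± 62.5 CPM in co-expression cells on day 3, 875 ± 39.1 in MLL-AF4 cells and 898 ± 52.1 in AF4-MLL cells. The ratio of co-expression to MLL-AF4 cells was 1.17 and to AF4-MLL cells 1.14. From day 3 to day 28 the sum moved by a log2 of -0.161 in co-expression cells, -0.0396 in AF4-MLL cells and 0.0302 in MLL-AF4 cells. As shares of nuclear counts the same differences were -0.374, -0.259 and -0.147, the last with the opposite sign. That scale moved the median of all genes tested by -0.215, -0.220 and -0.177, and relative to those shifts the sums on both scales were close. Without the 6 near-identical HIST2 copies, co-expression cells on day 3 had 804 ± 52.2 CPM, against 707 ± 30.3 in MLL-AF4 and 716 ± 46.7 in AF4-MLL cells.

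By class, the H4 sum was 253 ± 3.90 CPM in co-expression cells on day 3, against 218 ± 21.4 in MLL-AF4 and 203 ± 9.15 in AF4-MLL cells. The H2A sum was 254 ± 31.4 CPM, against 193 ± 12.7 and 232 ± 17.3 CPM. The HIST3 sum went another way, with 133 ± 19.8 CPM in AF4-MLL cells on day 3 and 113 ± 6.72 in co-expression cells. These sums over classes, clusters and the whole set are descriptions with no test.

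**Figure D3:**
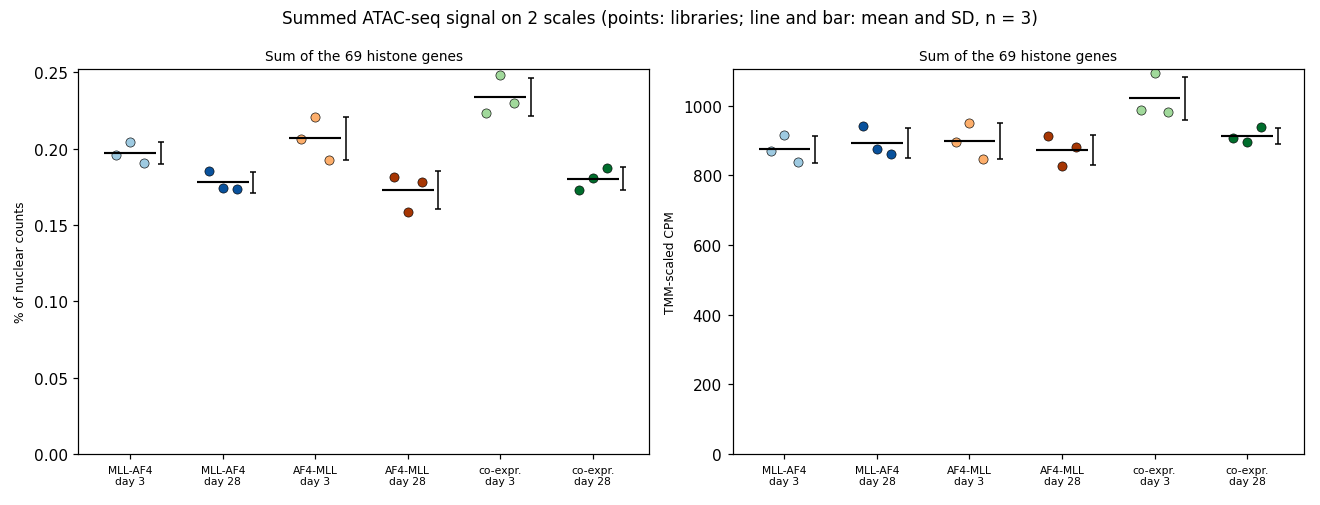
Sum of the 69 histone genes in each library, as a percentage of nuclear counts (left) and as TMM-scaled CPM (right), by group, with points for libraries, a line for the mean and a bar for the SD (n = 3). The co-expression libraries of day 3 lie at 0.224% to 0.248%, above all other libraries. Day 28 means lie below day 3 in all 3 settings on the left, and on the right in AF4-MLL and co-expression cells but not in MLL-AF4 cells (893 against 875 CPM).

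The comparison between construct settings on day 3 asks which genes differ while the inducible fusion has just been expressed. In co-expression against MLL-AF4 cells, 2 of 46 histone genes were called higher and 0 lower by edgeR's quasi-likelihood test (adjusted p under 0.05 over all 17660 genes), both from HIST2: HIST2H4A, an H4 gene, and HIST2H2AA4, an H2A gene. Over all genes 1.81% were called and 0.9% were called higher. DESeq2 called 0 of 46.

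HIST2H4A (ENSG00000270882, chr1:149832657-149833052) had 44.7, 51.5 and 53.3 CPM in co-expression cells on day 3 and 29.0, 26.6 and 32.4 CPM in MLL-AF4 cells, so all 3 libraries of the first were above all 3 of the second. The log2 difference was 0.76 (SE 0.19, edgeR adjusted p = 0.0159), a fold of 1.69. In AF4-MLL cells on day 3 it had 35.1, 31.8 and 43.2 CPM, also below all 3 co-expression libraries, with a log2 difference of 0.42 (SE 0.17, edgeR adjusted p = 0.226). Leaving out replicate 1 or 2 of the MLL-AF4 cells or replicate 3 of the co-expression cells ended the call against MLL-AF4 cells, with edgeR adjusted p of 0.0840, 0.114 and 0.0710. On day 28 the co-expression libraries had 35.3, 41.7 and 29.2 CPM and the MLL-AF4 libraries 37.1, 39.0 and 34 CPM, and the groups overlapped.

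HIST2H2AA4 (ENSG00000272196, chr1:149851061-149851594) had 24.0, 32.1 and 28.7 CPM in co-expression cells on day 3 and 14.5, 16.5 and 13.9 CPM in MLL-AF4 cells, again without overlap. The log2 difference was 0.91 (SE 0.26, edgeR adjusted p = 0.0387), a fold of 1.88. Counts behind these values were low, from 12 to 43 per library. Of 6 fits that each left out 1 library of these groups, only that without replicate 1 of the co-expression cells kept the call, and the others gave edgeR adjusted p from 0.0917 to 0.154.

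Each of these genes has a near-identical copy in HIST2 that was not called. The copies are not alike in span: HIST2H4B has a RefSeq span of 16753 bases and HIST2H4A one of 396. That of HIST2H4B contains HIST2H2AA4 and HIST2H3A. The counts of these genes, and the sums below, may thus depend on how reads on overlapping genes were assigned, which is not given in the sources used here. HIST2H4B had 40.7, 48.5 and 51.9 CPM in co-expression cells and 43.5, 58.4 and 33.5 CPM in MLL-AF4 cells on day 3, which overlapped. HIST2H2AA3 had 13.3, 20.1 and 16.4 CPM against 20.1, 12.7 and 13.9 CPM, which overlapped as well. A read from the 300 identical promoter bases printed above cannot be assigned to HIST2H4A or HIST2H4B by its sequence alone.

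Summed, HIST2H4A and HIST2H4B had a log2 difference of 0.38 (SE 0.14, edgeR adjusted p = 0.134), and HIST2H2AA3 and HIST2H2AA4 one of 0.54 (SE 0.20, edgeR adjusted p = 0.134). With the copies summed, 0 histone genes were called in this comparison. This sum was added after the values had been seen. The third pair, HIST2H3A with HIST2H3C, had 75.1 ± 7.19 CPM in co-expression and 63.0 ± 3.39 CPM in MLL-AF4 cells on day 3, with a summed log2 difference of 0.25 (SE 0.15, edgeR adjusted p = 0.460). HIST2H3D had 15.7 ± 3.61 and 12.9 ± 7.79 CPM.

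**Figure D4:**
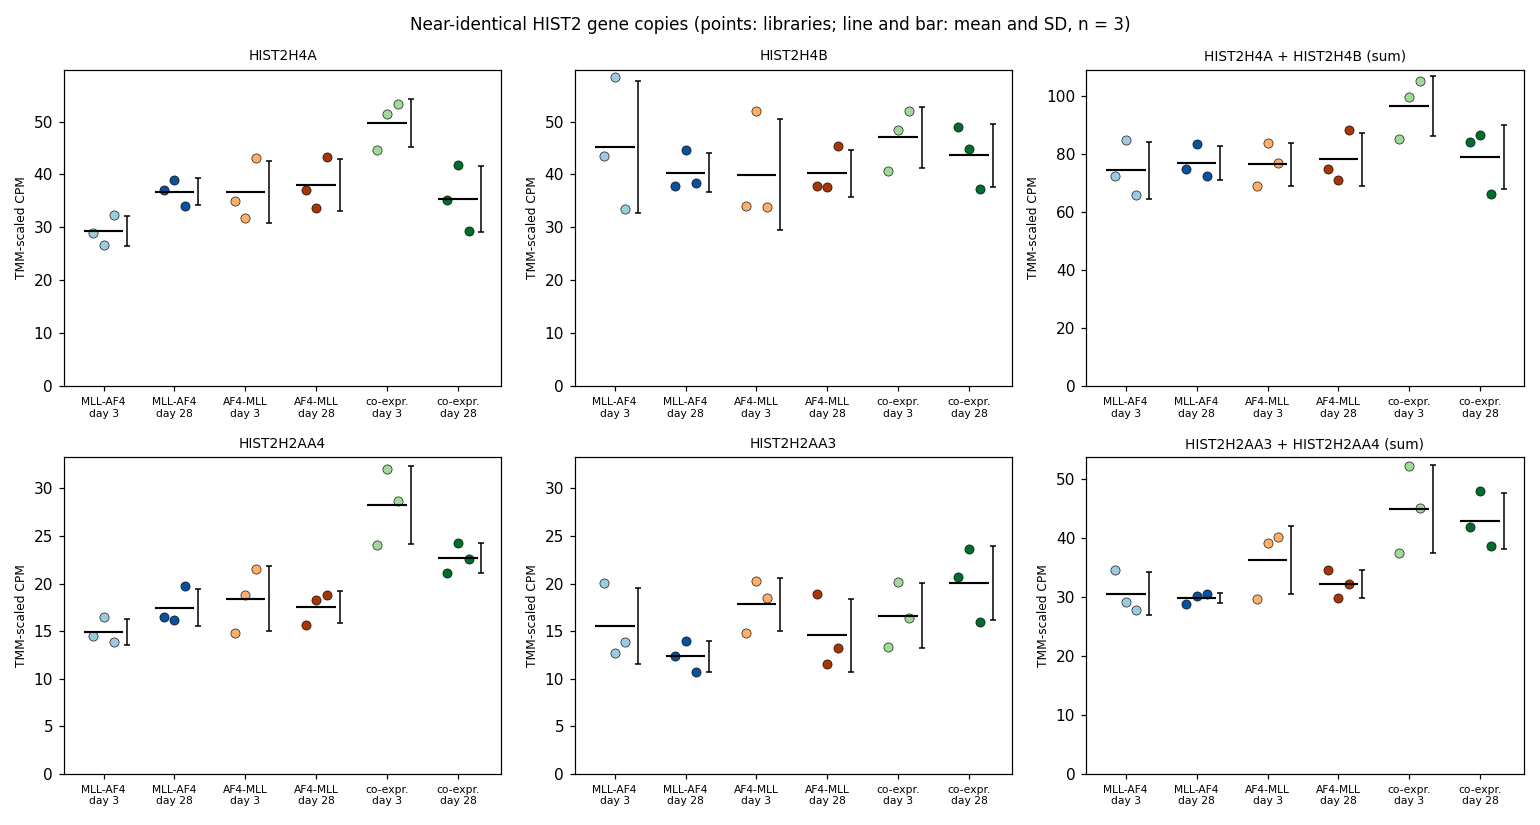
TMM-scaled CPM (vertical axis) of HIST2H4A, HIST2H4B and their sum, and of HIST2H2AA4, HIST2H2AA3 and their sum, in each library by group, with a line for the mean and a bar for the SD (n = 3). HIST2H4A separates co-expression from MLL-AF4 cells on day 3 (49.8 against 29.3 CPM), while HIST2H4B does not (47.0 against 45.1 CPM). The RefSeq span of HIST2H4B contains HIST2H2AA4.

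More broadly, 38 of 46 histone genes had a log2 difference above 0 in co-expression against MLL-AF4 cells on day 3, with a median of 0.23, against -0.0023 over all genes tested. In HIST2 it was 11 of 11 genes, with a median of 0.28, and in HIST1 25 of 32. Against AF4-MLL cells it was 36 of 46, with a median of 0.23 against 0.0057 over all genes, and 0 were called (1.28% of all genes were). Both comparisons use the same 3 co-expression libraries, so they are not independent. At an unadjusted p under 0.05, 6 histone genes were higher and 0 lower against MLL-AF4 cells, or 13%, beside 7.05% of all genes higher. Against AF4-MLL cells 8 were higher and 0 lower, or 17.4%, beside 5.89% of all genes higher. DESeq2 gave 5 and 6 at an unadjusted p under 0.05.

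The largest differences of single genes past an unadjusted p of 0.05 rested on few counts. HIST2H2AB, an H2A gene of HIST2, had 12, 22.4 and 17.8 CPM in co-expression cells and 6.69, 11.4 and 8.09 CPM in MLL-AF4 cells, with a log2 difference of 0.99 (SE 0.35, edgeR adjusted p = 0.126). Against AF4-MLL cells HIST1H2BF had 10.7, 11.9 and 8.88 CPM against 5.48, 1.45 and 5.39 CPM, with a log2 difference of 1.14 (SE 0.40, edgeR adjusted p = 0.149), from 1 to 16 counts per library. HIST2H2AA4 had the smallest p against AF4-MLL cells (log2 0.65, SE 0.22, edgeR adjusted p = 0.137), and 0.35 when summed with HIST2H2AA3 (SE 0.17, edgeR adjusted p = 0.386). On the other side HIST3H2A had -0.25 (SE 0.14, edgeR adjusted p = 0.478). None of these passed the adjusted threshold.

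**Figure D5:**
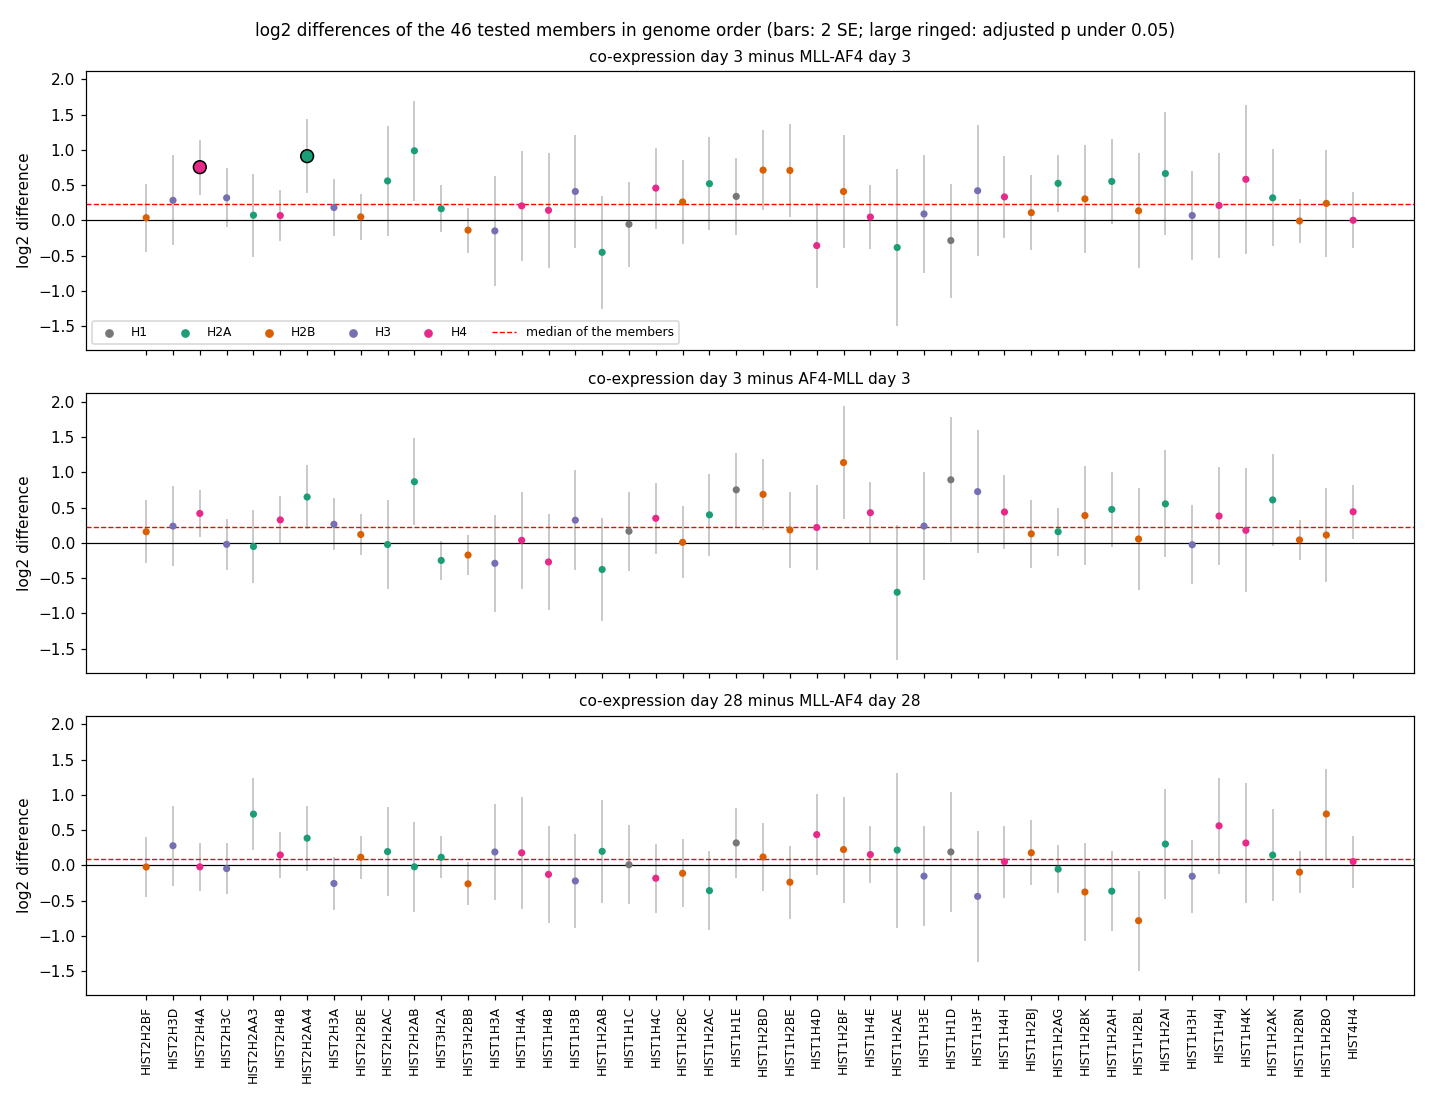
log2 differences with bars of 2 SE (vertical axis) for the 46 tested histone genes in genome order in 3 comparisons, coloured by class, with a dashed line at the median of the members. In the upper panel HIST2H4A and HIST2H2AA4 are ringed as called and the median lies at 0.23, and in the lower panel (day 28) it lies at 0.083 with 0 called.

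AF4-MLL and MLL-AF4 cells on day 3 differed in 0 histone genes at the adjusted threshold (0.142% of all genes) and in 3 at an unadjusted p under 0.05 (9.55% of all genes). HIST3H2A had 70.7, 81.0 and 58.6 CPM in AF4-MLL cells and 48.0, 53.3 and 53.2 CPM in MLL-AF4 cells, with a log2 difference of 0.42 (SE 0.16, edgeR adjusted p = 0.371). HIST1H1D had a log2 difference of -1.18 (SE 0.47, edgeR adjusted p = 0.383) from 2 to 11 counts per library. DESeq2 called 0 and gave 2 at an unadjusted p under 0.05.

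On day 28, 0 histone genes were called in any pair of settings, by edgeR or DESeq2. Between co-expression and MLL-AF4 cells 3 had an unadjusted p under 0.05, where 1.17% of all genes were called and 11.8% had such a p. HIST2H2AA3 had 20.7, 23.7 and 16.0 CPM in co-expression cells and 12.4, 13.9 and 10.7 CPM in MLL-AF4 cells (log2 0.73, SE 0.26, edgeR adjusted p = 0.157), and HIST1H2BL had a log2 difference of -0.79 (SE 0.35, edgeR adjusted p = 0.337). The sum of HIST2H2AA3 and its copy HIST2H2AA4 had 42.8 ± 4.77 CPM in co-expression cells on day 28 and 29.8 ± 0.843 CPM in MLL-AF4 cells, without overlap, and a log2 difference of 0.54 (SE 0.17, edgeR adjusted p = 0.10). On day 3 the summed difference was also 0.54.

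Between co-expression and AF4-MLL cells on day 28, 2 histone genes had an unadjusted p under 0.05 (1.69% of all genes called and 12.7% with such a p). HIST2H2AA3 again led the higher side (log2 0.53, SE 0.24, edgeR adjusted p = 0.310), and HIST3H2BB, which had 44.7, 47.3 and 41.2 CPM in co-expression cells and 63.8, 60.2 and 50.9 CPM in AF4-MLL cells, led the lower (log2 -0.38, SE 0.14, edgeR adjusted p = 0.191). AF4-MLL and MLL-AF4 cells on day 28 had 0 with an unadjusted p under 0.05, beside 0.0793% of all genes called and 8.26% with such a p. The smallest p on each side belonged to HIST1H2AE (log2 0.86, SE 0.49, edgeR adjusted p = 0.664) and HIST1H2AH (log2 -0.52, SE 0.28, edgeR adjusted p = 0.642). DESeq2 gave 2, 1 and 0 members at an unadjusted p under 0.05 in these 3 comparisons.

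From day 3 to day 28, 0 histone genes were called in any setting by edgeR or DESeq2. In AF4-MLL cells 3 had an unadjusted p under 0.05 (0.606% of all genes called, 9.29% with such a p), among them HIST1H4E (log2 0.44, SE 0.21, edgeR adjusted p = 0.50) and HIST3H2A (log2 -0.31, SE 0.14, edgeR adjusted p = 0.449). In MLL-AF4 cells 2 had such a p (2.87% of all genes called, 15.8% with such a p). HIST1H2BE had 11.2, 8.88 and 10.4 CPM on day 3 and 19.0, 11.7 and 26.0 CPM on day 28 (log2 0.80, SE 0.33, edgeR adjusted p = 0.184), and HIST1H4D led the lower side (log2 -0.60, SE 0.32, edgeR adjusted p = 0.350).

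In co-expression cells 5 histone genes were lower and 0 higher on day 28 at an unadjusted p under 0.05, or 10.9%, beside 4.81% of all genes lower, and 0.606% of all genes were called. Of the 46, 34 lay below 0, with a median log2 of -0.14, against -0.0013 over all genes. HIST2H4A had the smallest p (log2 -0.45, SE 0.16, edgeR adjusted p = 0.249), and HIST2H2AA3 led the higher side (log2 0.34, SE 0.24, edgeR adjusted p = 0.684). With the near-identical copies summed, HIST2H4A and HIST2H4B had -0.24 (SE 0.12, edgeR adjusted p = 0.502), and HIST2H2AA3 and HIST2H2AA4 had -0.039 (SE 0.16, edgeR adjusted p = 0.966), the opposite sign to HIST2H2AA3 alone. DESeq2 gave 0, 1 and 3 members at an unadjusted p under 0.05 in the AF4-MLL, the MLL-AF4 and the co-expression setting. Library size as the only scaling gave 42, 27 and 46 histone genes lower on day 28, for the AF4-MLL, the MLL-AF4 and the co-expression setting in this order, where 87.7%, 64.9% and 88.1% of all genes were called and the log2 median over all of them shifted by -1.05, -0.88 and -1.07, beside the rise in mitochondrial counts given above.

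The difference between 2 settings in their change from day 3 to day 28 was tested as an interaction, and 0 histone genes were called in any of the 3, by edgeR or DESeq2. For co-expression minus MLL-AF4 cells 6 were lower and 0 higher at an unadjusted p under 0.05 (4.73% of all genes were lower, and 0.232% were called). HIST2H4A had the smallest p of them (log2 -0.78, SE 0.26, edgeR adjusted p = 0.214), and HIST1H4D led the higher side (log2 0.79, SE 0.42, edgeR adjusted p = 0.535). Summed with its copy HIST2H4B, HIST2H4A had -0.31 (SE 0.19, edgeR unadjusted p = 0.0952), no longer under 0.05. For co-expression minus AF4-MLL cells 2 had such a p (0.0% of all genes called, 5.05% with such a p), with HIST2H3A at -0.60 (SE 0.26) and HIST2H2AA3 at 0.58 (SE 0.35), both with edgeR adjusted p = 0.955. Summed with their copies these were -0.22 for HIST2H3A and HIST2H3C (SE 0.19, edgeR unadjusted p = 0.241) and 0.089 for HIST2H2AA3 and HIST2H2AA4 (SE 0.24, edgeR unadjusted p = 0.71). For AF4-MLL minus MLL-AF4 cells 2 had such a p (0.317% and 9.75% of all genes), with HIST1H2AG at -0.62 (SE 0.27, edgeR adjusted p = 0.419) and HIST1H4E at 0.53 (SE 0.32, edgeR adjusted p = 0.599). DESeq2 gave 1, 0 and 1 at an unadjusted p under 0.05. The median SE of a histone gene in these interactions was 0.39 to 0.43 on the log2 scale.

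Other genes of the pathway were read from a list of 19 factors of histone gene expression, all of them tested. In 11 of the 12 comparisons 0 were called, and in MLL-AF4 cells ZNF473, a zinc finger protein of the U7 machinery that trims histone messages, was called higher on day 28. It had 13.4, 8.88 and 6.94 CPM on day 3 and 28.0, 17.9 and 18.8 CPM on day 28, a log2 difference of 1.10 (SE 0.32, edgeR adjusted p = 0.0320). Over all genes 0.0% to 2.87% were called in the 12 comparisons, with 2.87% in this one. The factors' medians ran from -0.17 to 0.18 on the log2 scale.

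NPAT, the coactivator of histone locus bodies, had 12.7, 17.9 and 15.7 CPM in co-expression cells on day 3, 12.1, 7.23 and 7.71 CPM in AF4-MLL cells and 10.04, 12.7 and 17.3 CPM in MLL-AF4 cells. Its log2 difference between co-expression and AF4-MLL cells was 0.66 (SE 0.31, edgeR adjusted p = 0.341). SLBP, the stem-loop binding protein, had 22.7, 3.73 and 13 CPM in co-expression cells on day 3 and 25.2, 13 and 23.1 CPM in AF4-MLL cells, a log2 difference of -0.72 (SE 0.27, edgeR adjusted p = 0.187). Its groups overlapped.

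Replication-independent variants, which are placed outside S phase by other chaperones or mark special chromatin, were read from a list of 12 genes, 11 of them tested. On day 3, co-expression against MLL-AF4 cells, H1F0, a linker histone known from resting and differentiated cells, was called higher (30.2 ± 3.16 against 13.9 ± 7.44 CPM, log2 1.09, SE 0.27, edgeR adjusted p = 0.0100). H2AFV, an H2A.Z gene, was called lower (7.94 ± 4.97 against 21.1 ± 3.71 CPM, log2 -1.37, SE 0.32, edgeR adjusted p = 0.00638). Counts were low: the co-expression libraries of H2AFV had 11.3, 2.24 and 10.2 CPM, from 3 to 17 counts. The MLL-AF4 libraries of H1F0 had 7 to 20 counts. For the variants, results by DESeq2 and with libraries left out are not given here. On day 28 both were called in the same direction against AF4-MLL cells, H1F0 at 0.79 (SE 0.23, edgeR adjusted p = 0.0447) and H2AFV at -0.95 (SE 0.27, edgeR adjusted p = 0.0430). H1F0 was also called in the interaction of AF4-MLL minus MLL-AF4 cells (log2 -1.55, SE 0.37, edgeR adjusted p = 0.0213), and H2AFZ, the other H2A.Z gene, was called lower on day 28 in MLL-AF4 cells (log2 -0.68, SE 0.20, edgeR adjusted p = 0.0304). In the other 8 comparisons 0 variants were called. Over all genes 1.81% were called in the day 3 comparison with MLL-AF4 cells and 1.69% in that of day 28 with AF4-MLL cells. In the interaction it was 0.317%, and over time in MLL-AF4 cells 2.87%.

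The genes around the clusters were compared with the members. Between the first and last HIST1 gene and among the 10 tested genes on each side, 38 tested genes outside the set had 0 calls in each of the 12 comparisons. Over all genes 0.0% to 2.87% were called in these comparisons, so 0 of 38 says little. On day 3, co-expression against MLL-AF4 cells, 28 of these 38 lay above 0 with a median log2 of 0.13, and against AF4-MLL cells 22 of 38 with a median of 0.078. The HIST1 members had medians of 0.25 and 0.23 in these comparisons. Around HIST2, by the same rule applied after the values had been seen, 22 genes had medians of -0.073 and 0.10, and the HIST2 members 0.28 and 0.24. Of these 22, 1 was called in the 12 comparisons (NBPF14, higher on day 28 in MLL-AF4 cells, where 2.87% of all genes were called). The 19 histone pseudogene entries summed to 61.0 ± 2.80 CPM in co-expression cells on day 3, 49.9 ± 4.90 in MLL-AF4 and 54.7 ± 5.44 in AF4-MLL cells.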

How the data were processed

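ATAC-seq libraries were made from nuclei of HEK293T cells. The authors deposited 1 table of raw counts of reads per gene, with no normalisation. The submitters' processing notes name bcl2fastq, Bowtie2, HTSeq and GRCh38, and their settings, the treatment of multiply mapped and duplicate reads and any shift of read ends are not given in the sources used here. Member spans and promoters came from RefSeq (GRCh38.p14), which matched all 69 genes by symbol or older symbol. All 18 libraries were fitted together in edgeR 4.0.16 (R 4.3.3) with TMM normalisation, filterByExpr (at least 10 counts, total of at least 15) and the quasi-likelihood F test over 17660 genes, with Benjamini-Hochberg adjustment and calls under 0.05, in 12 contrasts. DESeq2 1.42.0 was an alternative, and the others were scaling, filters, mitochondrial genes, the groups in the fit, a replicate block and left-out libraries. The members and lists were chosen with earlier results of these data known. Named are all called members, the smallest p per direction elsewhere, the 2 highest and the lowest tested member of each class, near-identical copies and testis-linked genes. Other named members were chosen after their values were seen. Same-number libraries did not deviate together (45 pairs, r from -0.091 to 0.037), so replicates were not paired.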

Additional observations from a re-analysis of the deposited data

Results flagged for a closer look

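H1F0, a linker histone outside the S phase set, changed differently over time in AF4-MLL and in MLL-AF4 cells by a test of the difference itself (log2 -1.55, SE 0.37, edgeR adjusted p = 0.0213). It had 25.2, 10.1 and 27.7 CPM on day 3 and 16.3, 13.3 and 14.6 CPM on day 28 in AF4-MLL cells, and the days overlapped through the low second library of day 3. The MLL-AF4 libraries held 22.3, 11.4 and 8.09 CPM on day 3 and 23.9, 31.2 and 21.5 CPM on day 28, and they overlapped through the high first library of day 3. Of the 46 histone genes tested, 0 passed the same edgeR test, 2 had an unadjusted p under 0.05, and DESeq2 called 0.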

How the results depend on the processing

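With library size as the only scaling, 42, 27 and 46 histone genes were called over time for the AF4-MLL, the MLL-AF4 and the co-expression setting, in place of 0. HIST1H4E in AF4-MLL cells (log2 -0.61), HIST1H2BE in MLL-AF4 cells (-0.056) and HIST2H2AA3 in co-expression cells (-0.74) then turned to the opposite sign, as the median of all genes moved by the amounts given in the report. In co-expression against MLL-AF4 cells on day 3, where 2 were called, 1 was called with a mean of at least 30 counts required (12 members left to test), 0 by the DESeq2 Wald test, 0 with near-identical copies summed (chosen after seeing the data), and 0 to 2 with 1 library left out. As shares of nuclear counts the summed differences over time were -0.259, -0.147 and -0.374 for the settings in the same order. Of the 10 highest members, 8 were also among the 10 highest per annotated base. With the replicate number as a block, 2 histone genes were called in that day 3 comparison, and the block changed no other call. The other counts of histone genes called, in all 12 comparisons, stayed within 1.5 times. Over all genes the counts called moved more. By the DESeq2 Wald test 60 genes were called in co-expression against MLL-AF4 cells on day 3 in place of 319, 28 in place of 226 against AF4-MLL cells, 5 in place of 25 between the single fusions, and on day 28 14, 40 and 2 in place of 206, 299 and 14. Over time it called 61, 211 and 62 in place of 107, 506 and 107, and 2 and 6 in place of 41 and 56 in the interactions with calls. Library size alone called 15485, 11457 and 15566 genes over time. In the day 3 comparisons with AF4-MLL cells it called 87 (co-expression) and 13 (MLL-AF4), on day 28 100, 81 and 2 and in the interaction of the single fusions 11. Without a filter on low counts 248 were called over time in MLL-AF4 cells, 107 and 10 in the same day 3 comparisons, 103, 123 and 4 on day 28 and 26 in that interaction. Without mitochondrial genes 62 and 51 were called over time in AF4-MLL and co-expression cells. Between the single fusions on day 3, 12 were called with a loess offset, 43 with at least 30 counts and 42 with these groups alone, and with at least 30 counts 85 in their interaction. With 1 library left out, 113 to 272 were called in co-expression against MLL-AF4 cells on day 3 (fewest without MLL-AF4 day 3 replicate 1). Against AF4-MLL cells 86 to 179 were called (fewest without AF4-MLL day 3 replicate 1 or replicate 3). Between the single fusions 2 to 20 were called (fewest without AF4-MLL day 3 replicate 1 or MLL-AF4 day 3 replicate 2). On day 28 the ranges in the same order were 59 to 131, 103 to 200 and 2 to 10. Over time they were 73 to 101, 215 to 331 and 82 to 102, and in the interactions 9 to 51, 0 to 1 and 20 to 49, in the order of the report, so the shares of all genes called move with single libraries. The other alternatives stayed within 1.5 times. Tested members had a median of 18 counts per library.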
